A study of Mus musculus with 6 samples.

Results

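The Wnt signal of basal skin cells was followed through 10 genes: the ligands Wnt3, Wnt4, Wnt7a, Wnt7b and Wnt10a, the ligand carrier Wls, the Frizzled receptors Fzd6 and Fzd10, the coreceptor Lrp6 and the feedback inhibitor Axin2. They were taken by gene symbol from the deposited expression table, which held all 10 among its 24354 genes. RNA had been sequenced from FACS-sorted mouse epidermal cells of the late embryo (E18.5) with much α6 integrin, part of the receptor that holds basal keratinocytes to the basement membrane. The wild-type (WT) group had 3 libraries, and the mutant group had 3 libraries from epidermis homozygous for Pik3ca H1047R, an activating variant of the catalytic subunit of phosphoinositide 3-kinase. All 6 samples carried the strain label C57BL6, and no Cre driver or other allele was named in the labels. Whether each sample is a separate animal is not in the labels, so the p-values here reflect sample-to-sample spread that could be technical.

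Wnt proteins are lipid-modified in the endoplasmic reticulum, carried to the cell surface by Wls, and bound there by a Frizzled receptor together with Lrp5 or Lrp6. Binding inhibits the destruction complex of Axin, Apc and Gsk3 kinases, so that β-catenin is stabilised and acts in the nucleus with TCF/LEF factors. Axin2 is a target of this pathway that also restrains it, and its transcript is widely used as a readout of β-catenin activity. In embryonic skin, Wnt signals from the epidermis are required for hair follicle formation, and basal keratinocytes both make and receive them.

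Expression was given as FPKM (fragments per kilobase of transcript), a unit set per length, so levels can be compared between genes. Read totals were not used here, so depth is unknown, and summed FPKM ran from 538627 to 767148 per library. The sorted cells carried the basal keratins as their leading markers: Krt5 stood at 12028 ± 155 FPKM in WT and 11977 ± 919 in mutant libraries (SD, n = 3 each), and Krt14 at 10194 ± 440 and 8453 ± 819. Of 7 basal markers, none rose and 4 fell as deposited. Among those that fell was Itga6, the gene of the α6 integrin used for sorting, from 163 ± 7.55 to 123 ± 2.13 FPKM (limma adjusted p = 0.00146). Pik3ca itself fell from 9.04 ± 0.415 to 6.65 ± 0.602 FPKM, a log2 difference of -0.39 (limma adjusted p = 0.00433; 0.589 at the same total FPKM). The allele is a point mutation, so this level is no check of the labels. Correlations between libraries of a group lay between 0.959 and 0.98, and those between groups between 0.939 and 0.953.

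Of the 10 genes, 7 rose in the mutant, 1 fell and 2 did not pass the test. The 7 that rose were Fzd6, Fzd10, Wnt7a, Axin2, Wnt7b, Wnt4 and Wnt10a, the gene that fell was Wls, and Wnt3 and Lrp6 did not pass. The test was limma on log2(FPKM + 1) with Benjamini-Hochberg adjustment over the 11385 genes whose mean reached 1 FPKM, at a threshold of 0.05. Each log2 difference below is mutant minus WT on that scale, where the added 1 makes changes of low genes look smaller. Calls were frequent over the whole table: 5234 genes passed (46%), of which 2642 were higher in the mutant (23.2% of genes tested) and 2592 lower (22.8%). Counts of called genes in each list below can be read against these shares. The median log2 difference was 0.45 over the 10 genes and 0.01 over all genes tested. The 10 genes were chosen with earlier results of these data known, so their counts and median beside those of all genes are a description and not a test. Leaving out WT replicate 1, WT replicate 2, mutant replicate 1 or mutant replicate 3 left 5 of the 10 higher, leaving out mutant replicate 2 left 6, and 7 remained without WT replicate 3. The groups did not overlap for 8 of the 10 genes, and 7 of these lay higher in the mutant, where 56% of all tested genes had groups that did not overlap and 29.1% had them with the mutant higher.

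The balance of calls depends on how libraries are scaled to each other. As deposited, 50.5% of called genes were higher in the mutant, but with every library set to the same total FPKM this was 86.5%, and 87.8% when small RNA rows were left out of that total. The median tested gene moved to 0.30 and 0.33 on the log2 scale under those scalings. Relative to the median gene at the same total FPKM, Fzd6 and Fzd10 both differed by 0.815, Wnt7a by 0.634, Wnt7b by 0.566, Axin2 by 0.562, Wnt4 by 0.379, Wnt10a by 0.255, Lrp6 by -0.0267, Wnt3 by -0.133 and Wls by -0.338. Such a scaling multiplies each library by 1 factor, so the order of the genes could hardly change. Quantile normalisation can change it, and relative to its median gene Fzd10 (0.87) was then above Fzd6 (0.774), Wnt7b (0.621) above Wnt7a (0.566), and Wls (-0.128) stood closer to Wnt3 (-0.102).

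**Figure D1:**
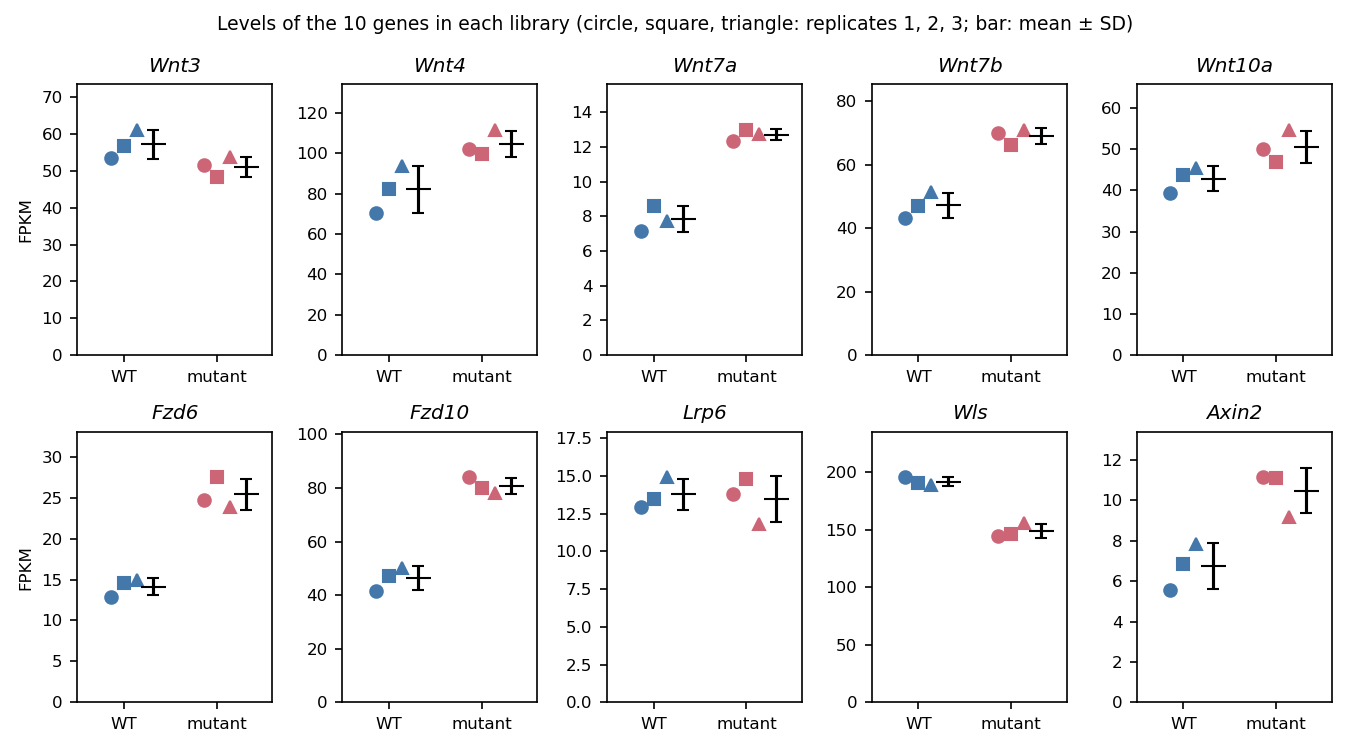
FPKM of the 10 genes in the 3 WT and 3 mutant libraries, 1 point per library with the group mean and SD. The groups separate for 8 genes, 7 of them with the mutant libraries above the WT libraries and Wls with the mutant libraries below, while the points of Wnt3 and Lrp6 overlap.

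In WT cells the carrier transcript Wls was the most abundant, at 191.7 ± 3.65 FPKM, followed by Wnt4 at 82.1 ± 11.6 and Wnt3 at 57.1 ± 3.89. Wnt7b, Fzd10 and Wnt10a came next at 47.2, 46.4 and 42.9 FPKM, with library values that overlapped. Fzd6 and Lrp6 stood at 14.1 and 13.8 FPKM and were not separated by their spread, and neither were Wnt7a and Axin2 at 7.85 and 6.77. In the mutant the order was Wls, Wnt4, Fzd10, Wnt7b, then Wnt3 and Wnt10a overlapping near 51.2 and 50.6 FPKM, then Fzd6, then Lrp6 and Wnt7a overlapping at 13.5 and 12.7, and last Axin2 at 10.5. Wnt3 was therefore the ligand with the second-highest level among the 5 in WT and was below Wnt7b in every mutant library.

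Promoter sequence was available for 6 of the 10 genes, as windows from 250 bases before to 50 bases after the transcription start (RefSeq, build GRCm38.p6). A script searched them on both strands for CTTTGAT and CTTTGAA, letters that TCF/LEF factors bind. Neither was present in any of the 6 windows, while CTTTGAT was found in 3.73% and CTTTGAA in 5.14% of all 32851 windows. The windows of the 6 genes were rich in G and C, at 58% to 84.3% against a median of 52.7% over all windows. The 250 bases before the start are printed for 2 genes that rose, Axin2 and Wnt7a, and for Wnt3, which did not pass the test, so that members on both sides of the threshold can be compared. Capitals mark the letters GGGCGG, or on the other strand CCGCCC. All 6 genes held this motif: the other 3 had 8 matches (Wnt4), 1 (Fzd10) and 1 (Wls, which fell). This motif was chosen after the sequences were seen, and 32.7% of all such 250-base stretches hold it. Axin2 lies at chr11:108920099-108920348 on the plus strand, Wnt7a at chr6:91411354-91411603 on the minus strand and Wnt3 at chr11:103773925-103774174 on the plus strand.
Axin2: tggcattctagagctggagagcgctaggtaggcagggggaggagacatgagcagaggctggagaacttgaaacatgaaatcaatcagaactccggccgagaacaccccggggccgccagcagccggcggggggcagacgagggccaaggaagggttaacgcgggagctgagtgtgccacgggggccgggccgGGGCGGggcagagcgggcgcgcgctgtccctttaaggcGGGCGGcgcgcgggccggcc
Wnt7a: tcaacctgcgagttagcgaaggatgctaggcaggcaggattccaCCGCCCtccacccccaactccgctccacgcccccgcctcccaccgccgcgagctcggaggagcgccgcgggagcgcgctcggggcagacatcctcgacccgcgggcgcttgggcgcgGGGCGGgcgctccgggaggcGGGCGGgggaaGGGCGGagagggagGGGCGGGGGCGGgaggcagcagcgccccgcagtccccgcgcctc
Wnt3: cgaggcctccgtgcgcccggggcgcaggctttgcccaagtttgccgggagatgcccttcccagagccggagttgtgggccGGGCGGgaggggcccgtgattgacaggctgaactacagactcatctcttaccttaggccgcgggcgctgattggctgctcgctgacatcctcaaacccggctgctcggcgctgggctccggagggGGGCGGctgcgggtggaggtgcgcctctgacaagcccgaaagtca
GGGCGG occurred 2 times in the Axin2 stretch, 6 times in that of Wnt7a and 2 times in that of Wnt3. Axin2 and Wnt3 thus had the same number of matches, with only Axin2 past the test.

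Among the ligands, Wnt7a and Wnt7b showed the largest relative increases of the 5. Both encode closely related ligands made by the epidermis. Wnt7a (chr6, 91363983 to 91411369, minus strand) was measured at 7.18, 8.62 and 7.77 FPKM in the WT libraries and at 12.4, 13.0 and 12.8 in the mutant libraries. All mutant libraries lay above all WT libraries, and the mean rose 1.62-fold (log2 difference 0.63, SE 0.073, adjusted p = 0.000358). Wnt7b (chr15, 85535437 to 85593708, minus strand) was measured at 43.3, 47.0 and 51.3 FPKM in WT and at 69.9, 66.3 and 71.1 in mutant libraries. Its lowest mutant library was above its highest WT library, with a rise of 1.46-fold (log2 difference 0.54, SE 0.0738, adjusted p = 0.000821). The ratio of Wnt7a to Wnt7b was 0.167 ± 0.016 in WT and 0.184 ± 0.0105 in mutant libraries and overlapped between groups (exact permutation p = 0.3, two-sided). The 2 genes thus rose by amounts that these libraries do not separate. The antisense gene AU022754 shares exon bases with Wnt7b, and its own row held 0.0977 to 0.315 FPKM. No source used here says whether reads were counted by strand, so reads of that pair cannot be told apart.

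Wnt4, a ligand with roles in several epithelia, was the most abundant of the 5 in both groups. Wnt4 (chr4, 137277635 to 137299501, plus strand) was measured at 70.4, 82.3 and 93.6 FPKM in WT and at 102, 99.8 and 112 in mutant libraries. The mutant libraries were all higher, but the gap between the highest WT and the lowest mutant library was small beside the spread of the WT group. The mean rose 1.27-fold (log2 difference 0.35, SE 0.104, adjusted p = 0.0256). The call was lost when any library except WT replicate 3 was left out, with adjusted p between 0.0503 and 0.0668. Wnt10a, a ligand needed for teeth, hair and sweat glands, lies on chr1 (74792019 to 74804175, plus strand). It was measured at 39.5, 43.8 and 45.4 FPKM in WT and at 50.1, 46.9 and 54.8 in mutant libraries. The groups did not overlap, and the mean rose 1.18-fold (log2 difference 0.23, SE 0.0793, adjusted p = 0.0432). The call of Wnt10a was also lost with no filter on low values (adjusted p = 0.0651) or no trend in the variance prior (0.056). Wnt10a lost it without WT replicate 1 (adjusted p = 0.138), WT replicate 2 (0.0851), mutant replicate 1 (0.0869) or mutant replicate 3 (0.101).

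Wnt3 was the ligand of these 5 that did not pass. Wnt3 (chr11, 103774175 to 103818021, plus strand) was measured at 53.4, 56.8 and 61.2 FPKM in WT and at 51.5, 48.3 and 53.7 in mutant libraries. The highest mutant library was just above the lowest WT library, so the groups overlapped. The log2 difference was -0.16 (95% interval -0.32 to 0.00819, adjusted p = 0.107). Its sign was turned by scaling to the same total FPKM, to 0.17, and to 0.20 when small RNA rows were also left out. With array weights, which give each library its own weight, Wnt3 passed as lower (log2 difference -0.19, adjusted p = 0.011).

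The other Wnt ligands in the table give the setting of these 5. Of 19 ligands in the table, 10 were tested, of which 6 rose and none fell (median log2 difference 0.22), and 9 were under 1 FPKM in every library. The count of risers was 3 without WT replicate 1, WT replicate 2 or mutant replicate 1, and with array weights 2 ligands fell. Wnt3a, a close relative of Wnt3, rose from 5.82 ± 1.37 to 10.2 ± 0.823 FPKM (log2 difference 0.73, adjusted p = 0.00399). Wnt10b rose from 58.6 ± 1.03 to 67.5 ± 3.0 FPKM (log2 difference 0.20, adjusted p = 0.0241), a call lost without WT replicate 1 (0.0778), WT replicate 2 (0.0705) or mutant replicate 1 (0.0908). Wnt6 (81.1 ± 1.23 against 75.6 ± 7.36 FPKM, adjusted p = 0.296) and Wnt16 (34.2 ± 3.56 against 39.1 ± 0.412 FPKM, adjusted p = 0.0804) did not pass. Wnt16 passed as higher under all 4 alternative scalings (adjusted p between 0.00409 and 0.0494). Wnt6 passed as lower with array weights (0.0296) and as higher at the same total FPKM (0.0474). Among gene neighbours, Wnt10a lies 6193 bases from Wnt6, and the ratio of Wnt10a to Wnt6 went from 0.529 ± 0.0434 to 0.67 ± 0.0126 without overlap. Wnt3 lies 24328 bases from Wnt9b, a ligand under 1 FPKM in these libraries.

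The share of each ligand in the summed ligand signal does not depend on a scaling that multiplies a whole library by 1 factor. The sum itself was 421 ± 27.1 FPKM in WT and 485 ± 24.6 in mutant libraries. Wnt3 held 13.56 ± 0.149% of it in WT and 10.54 ± 0.0622% in the mutant, a difference of -3.01 points. Wnt7b moved the other way, from 11.19 ± 0.255% to 14.25 ± 0.252%, by 3.06 points. The order of these 2 ligands relative to each other was reversed: the ratio of Wnt7b to Wnt3 was 0.825 ± 0.0144 in WT and 1.35 ± 0.0246 in mutant libraries. The Wnt7a share went from 1.865% to 2.628%, and that of Wnt4 from 19.42 ± 1.51% to 21.57 ± 0.445%. Wnt6 lost the most, from 19.32 ± 1.47% to 15.56 ± 0.732%. Groups did not overlap for any of these 5 shares nor for Wnt3a (exact permutation p = 0.1 each, two-sided, the smallest that 3 against 3 allows). The shares of Wnt10a (10.17% and 10.42%, p = 0.3), Wnt10b (13.94% and 13.92%, p = 0.9) and Wnt16 (8.10% and 8.07%, p = 1) overlapped between groups in the same exact permutation test.

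**Figure D2:**
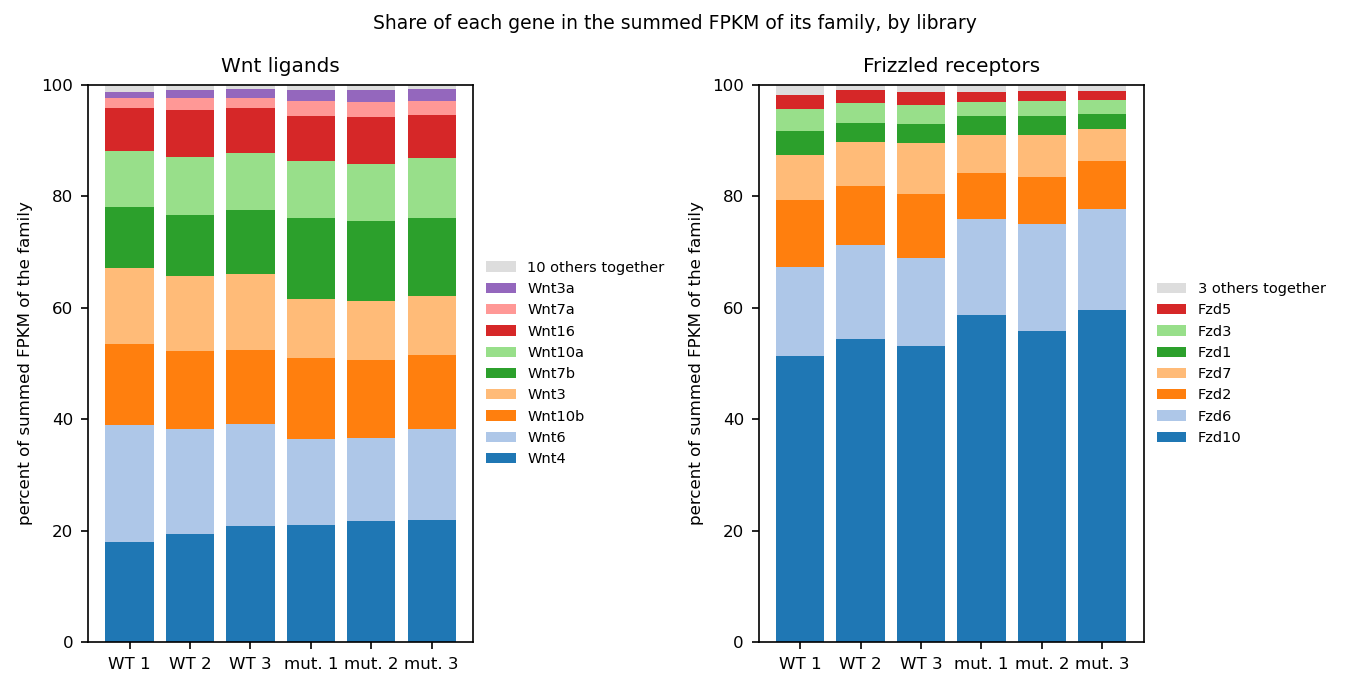
Percent of the summed FPKM of the Wnt ligands (left) and of the Frizzled receptors (right) held by each gene, as stacked bars, 1 bar per library. Wnt7b stands above 14% and Wnt3 below 11% of the ligand sum in the mutant mean, the reverse of their order in WT, and Fzd10 holds more than all other Frizzled receptors together in both groups.

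Wls, the membrane protein that carries Wnt ligands through the secretory route, was the only member that fell. Wls (chr3, 159839695 to 159935175, plus strand) was measured at 196, 191 and 189 FPKM in WT and at 144, 146 and 156 in mutant libraries. The 3 WT libraries were close to each other and all above the mutant libraries. The WT mean was 1.29 times the mutant mean of 148.7 ± 6.26 FPKM (log2 difference -0.36, SE 0.0632, adjusted p = 0.00256). The call was kept at the same upper quartile (adjusted p = 0.00207) and in 15 of 18 alternatives in all, and lost under 3 scalings. Under quantile normalisation the log2 difference was -0.09 (adjusted p = 0.164), at the same total FPKM it was -0.04 (adjusted p = 0.719), and at the same total without small RNA rows it was 0.00 (adjusted p = 0.975). Of 8 tested genes for secretion and lipid modification of Wnt, 1 rose and 2 fell (median log2 difference 0.01). Tmed5, a cargo receptor of the early secretory route, rose from 13.4 to 16.8 FPKM (log2 difference 0.32, adjusted p = 0.0166; 0.0575 without mutant replicate 2). Snx3, a sorting nexin that returns Wls from endosomes, fell from 90.8 to 77.9 FPKM (log2 difference -0.22, adjusted p = 0.0309), and its sign was turned at the same total FPKM (0.11). The Snx3 call was lost without WT replicate 1 (adjusted p = 0.105), WT replicate 2 (0.0952), mutant replicate 1 (0.0856) or mutant replicate 2 (0.112).

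Of all 10 genes, the 2 Frizzled receptors had the largest log2 differences. Fzd6 is a receptor known for hair orientation and planar polarity in skin. Fzd6 (chr15, 39006280 to 39038190, plus strand) was measured at 12.9, 14.6 and 14.9 FPKM in WT and at 24.7, 27.5 and 23.9 in mutant libraries. Every mutant library was far above every WT library, a rise of 1.80-fold (log2 difference 0.80, SE 0.078, adjusted p = 0.000165). Fzd10 is a receptor of the β-catenin branch, on chr5 (128601106 to 128604093, plus strand). It was measured at 41.6, 47.2 and 50.3 FPKM in WT and at 84.2, 79.9 and 78.3 in mutant libraries. The groups were again well apart, with a rise of 1.74-fold (log2 difference 0.79, SE 0.0783, adjusted p = 0.000179). The ratio of Fzd6 to Fzd10 was 0.305 ± 0.00774 in WT and 0.314 ± 0.0266 in mutant libraries (exact permutation p = 0.9, two-sided). Both calls held under all 18 alternative settings, with log2 differences of 0.744 to 1.149 for Fzd6 and 0.718 to 1.15 for Fzd10. Gm26704 shares exon bases with Fzd6 on the other strand, and their reads cannot be told apart.

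Of the 10 Frizzled genes in the table, 7 were tested, 3 rose and none fell (median log2 difference 0.30). The third riser was Fzd2, from 9.90 to 11.7 FPKM (log2 difference 0.22, adjusted p = 0.0371). That call was lost without WT replicate 1 (adjusted p = 0.0998), WT replicate 2 (0.13), mutant replicate 1 (0.103) or mutant replicate 2 (0.113). Fzd7 (7.34 against 9.32 FPKM, adjusted p = 0.103), Fzd1 (3.28 against 4.47 FPKM, adjusted p = 0.0542) and Fzd3 (3.13 against 3.52 FPKM, adjusted p = 0.189) did not pass. The count of risers was 5 without mutant replicate 3, where Fzd1 (0.00382) and Fzd7 (0.0231) passed, and 7 with array weights or at the same total FPKM. The Frizzled sum was 87.5 ± 6.85 FPKM in WT and 139 ± 6.93 in mutant libraries. Fzd10 held 52.99 ± 1.51% of it in WT and 58.01 ± 1.97% in the mutant, and Fzd6 16.15 ± 0.566% and 18.21 ± 0.994%. The shares of Fzd2, Fzd7 and Fzd3 were lower in all mutant libraries, by -2.94, -1.71 and -1.07 points (exact permutation p = 0.1 for each of these 5 shares, two-sided).

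Lrp6, the coreceptor phosphorylated when Wnt binds, did not pass the test. Lrp6 (chr6, 134446478 to 134566913, minus strand) was measured at 13.0, 13.4 and 14.9 FPKM in WT and at 13.8, 14.8 and 11.8 in mutant libraries. The highest and lowest libraries of the groups interleaved. The log2 difference was -0.03 (95% interval -0.243 to 0.176, adjusted p = 0.785), so smaller changes in either direction were not resolved. The sign was turned at the same total FPKM (0.28) and with array weights (0.07). The ratio of Fzd10 to Lrp6 went from 3.36 ± 0.149 to 6.04 ± 0.609 without overlap. Of 7 tested coreceptors and other Wnt receptors, 1 rose and 1 fell (median log2 difference -0.03). Ryk, a receptor with a Wnt-binding domain, fell from 97.7 to 76.1 FPKM (log2 difference -0.36, adjusted p = 0.00501), although at the same total FPKM its difference was -0.03 (adjusted p = 0.763), and 0.00 with the opposite sign when small RNA rows were also left out. Mesdc2, a chaperone of Lrp5 and Lrp6, rose from 5.10 to 6.12 FPKM (log2 difference 0.22, adjusted p = 0.0234), a call lost without WT replicate 3 (0.0615), mutant replicate 1 (0.0777) or mutant replicate 2 (0.0579). Ptk7 (63.7 against 56.2 FPKM, adjusted p = 0.0622) and Lrp4 (44.6 against 53.9 FPKM, adjusted p = 0.0694) did not pass. Lrp4 passed as higher without WT replicate 3 (0.026), without mutant replicate 3 (0.0248), with array weights (0.0025) or at the same total FPKM (0.0171), and Ptk7 as lower with array weights (0.0148) or with length and GC trends removed (0.00142).

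Genes that set how much Frizzled stays on the surface rose beside the receptors. Of 9 genes for R-spondins, Lgr receptors and Frizzled turnover, 5 were tested and all 5 rose (median log2 difference 0.47), while the 4 R-spondin ligands were under 1 FPKM. The count fell to 1 without WT replicate 1 or mutant replicate 2 and to 3 without WT replicate 2. Lgr4, an R-spondin receptor, rose from 16.85 ± 0.665 to 25.7 ± 1.74 FPKM (log2 difference 0.58, adjusted p = 0.000348). Lgr6 rose from 19.7 to 25.3 FPKM (log2 difference 0.34, adjusted p = 0.0169) and Lgr5, a marker of follicle cells, from 0.717 to 1.42 FPKM (log2 difference 0.49, adjusted p = 0.0209). Lgr5 reached the minimum mean of 1 FPKM only through its mutant libraries, so its place in the count was partly set by its difference. The ubiquitin ligase gene Znrf3, which removes Frizzled from the surface and is itself a Wnt target, rose from 12.6 to 17.9 FPKM (log2 difference 0.47, adjusted p = 0.0166). Its partner Rnf43 rose from 16.2 to 21.8 FPKM with overlapping groups (log2 difference 0.40, adjusted p = 0.0343). Several of these calls rested on single libraries. Without WT replicate 1 the adjusted p was 0.0575 for Lgr6, 0.0555 for Lgr5, 0.051 for Znrf3 and 0.107 for Rnf43. Without mutant replicate 2 it was 0.0546 for Lgr6, 0.0644 for Znrf3 and 0.111 for Rnf43. Lgr5 also missed without WT replicate 2 (0.0542), and Rnf43 without WT replicate 2 (0.0845) or mutant replicate 1 (0.1).

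Axin2 is both a part of the destruction complex and a target of the pathway. Axin2 (chr11, 108920349 to 108950781, plus strand) was measured at 5.59, 6.87 and 7.86 FPKM in WT and at 11.2, 11.1 and 9.19 in mutant libraries. The lowest mutant library, replicate 3, lay above the highest WT library, also replicate 3, but closer to it than the other 2 mutant libraries. The mean rose 1.55-fold (log2 difference 0.57, SE 0.12, 95% interval 0.293 to 0.846, adjusted p = 0.00611). The call held under all 18 alternatives, with log2 differences of 0.455 to 0.894. Gm11670 shares exon bases with Axin2 on the other strand, and their reads cannot be told apart.

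Of 17 tested Wnt and β-catenin target genes, Axin2 among them, 8 rose and 2 fell (median log2 difference 0.21), where 23.2% of all tested genes rose and 22.8% fell. These risers include Lgr5, Znrf3 and Rnf43, which were also counted in the Frizzled turnover group above, and Lgr5 was tested only through its mutant libraries. The count of risers was 5 without WT replicate 1 and 4 without mutant replicate 2, and that of genes that fell was 0 without WT replicate 1, WT replicate 2 or mutant replicate 2. Tnfrsf19, a receptor of hair placodes, rose from 80.6 to 111.4 FPKM (log2 difference 0.46, adjusted p = 0.00152). Apcdd1, a membrane inhibitor of Wnt ligands, rose from 53.7 ± 7.03 to 90.0 ± 4.37 FPKM (log2 difference 0.74, adjusted p = 0.000705). Tcf7 and Lef1, both TCF/LEF factors and targets, rose from 3.94 to 5.82 FPKM (log2 difference 0.46, adjusted p = 0.0057) and from 42.2 to 52.4 FPKM (log2 difference 0.31, adjusted p = 0.0155). The 2 that fell were the low genes Bambi (1.26 to 0.779 FPKM, adjusted p = 0.0204) and Twist1 (1.54 to 0.615 FPKM, adjusted p = 0.0455). Their mutant means were under 1 FPKM, so both were tested only through their higher WT level, and neither passed at the same total FPKM (adjusted p = 0.233 and 0.0979). Both missed without mutant replicate 2 (0.0631 and 0.142), as did Lef1 (0.0615), and Twist1 also without WT replicate 2 (0.0559) or mutant replicate 3 (0.115). Of the classical proliferation targets, Ccnd1 (39.0 ± 3.84 against 37.7 ± 1.09 FPKM, adjusted p = 0.695) and Myc (72.3 ± 2.61 against 64.1 ± 5.39 FPKM, adjusted p = 0.0897) did not pass. Myc passed as lower without mutant replicate 3 (0.047), with array weights (0.00985) or with length and GC trends removed (0.0324). Itga6 above, Rnf43, Bambi, Twist1, Ccnd1, Myc, and Ctnnb1, Sox9, Krt17, Krt8 and C1qc below, were chosen for mention after their values were seen. The pathway genes most like Axin2 over the 6 libraries were Lef1 (Pearson r = 0.995), Bcl9 (0.994) and Chd8 (0.992). Those most like Wnt4 were Wnt3a (0.983), Wnt10a (0.961) and Kremen2 (0.96). These coefficients are a description, since they take in the difference between the groups and any difference in depth, which is unknown.

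Secreted and membrane inhibitors of Wnt did not move as a block. Of 9 tested, 3 rose and 1 fell (median log2 difference -0.04), where 23.2% of all tested genes rose and 22.8% fell. Besides Apcdd1, the risers were Kremen2, a receptor of Dickkopf inhibitors that removes Lrp6 (62.5 to 83.6 FPKM, log2 difference 0.42, adjusted p = 0.00295), and Sfrp1, a secreted Frizzled-like decoy (0.887 ± 0.25 to 3.49 ± 1.33 FPKM, log2 difference 1.22, adjusted p = 0.00199). Sfrp1 reached the minimum mean of 1 FPKM only through its mutant libraries, so its place in the count was partly set by its difference. Sfrp2 fell from 4.80 ± 1.47 to 2.34 ± 1.38 FPKM with overlapping groups (log2 difference -0.84, adjusted p = 0.0439), and missed without WT replicate 1 (0.131), WT replicate 3 (0.0937), mutant replicate 2 (0.141) or mutant replicate 3 (0.112). Sfrp2 is also made by dermal fibroblasts, and 3 of 8 tested fibroblast markers fell too. Their summed level was 417.17 to 559.41 FPKM in WT and 323.51 to 362.51 FPKM in mutant libraries, and their part in the result was not tested.

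Inside the cell, most tested members of the destruction complex and Dishevelled group did not pass the test. Of 21 tested, 3 rose and 3 fell (median log2 difference -0.04), where 23.2% of all tested genes rose and 22.8% fell. Axin2 was among the risers. Gsk3b, a kinase of the complex, rose from 14.8 to 20.4 FPKM (log2 difference 0.44, adjusted p = 0.00936), and Dvl3, which relays the Frizzled signal, from 13.4 to 18.2 FPKM (log2 difference 0.42, adjusted p = 0.0246). Axin1, the constitutive relative of Axin2, fell from 36.3 to 30.7 FPKM (log2 difference -0.24, adjusted p = 0.0155), with its sign turned at the same total FPKM (0.09). Axin1 missed without WT replicate 2 (adjusted p = 0.0607) or mutant replicate 2 (0.0648). Dvl3 missed without WT replicate 1 (0.0749), WT replicate 2 (0.0585), mutant replicate 1 (0.0741) or mutant replicate 2 (0.0789). Siah1a, a ubiquitin ligase that can degrade β-catenin, fell from 15.5 to 12.1 FPKM (log2 difference -0.33, adjusted p = 0.00923), but stood at -0.02 at the same total FPKM (adjusted p = 0.883), and at 0.01 when small RNA rows were also left out. The β-catenin transcript Ctnnb1 stood at 491 FPKM in both groups (adjusted p = 0.989), but passed as higher under quantile normalisation (log2 difference 0.31, adjusted p = 0.0193), at the same total FPKM (0.33, 0.0171) and when small RNA rows were also left out (0.36, 0.00483). RNA level says nothing of how much β-catenin protein was stable.

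In the nuclear group, 9 of 15 tested genes rose and 1 fell (median log2 difference 0.31). Tcf7 and Lef1, counted above as targets, are again among these risers. Tle1, a Groucho corepressor, rose from 5.25 to 10.7 FPKM (log2 difference 0.90, adjusted p = 0.000166), and Bcl9, which links β-catenin to Pygo proteins, from 6.76 to 12.5 FPKM (log2 difference 0.82, adjusted p = 0.00359). Pygo2 rose from 17.8 to 22.3 FPKM (log2 difference 0.31, adjusted p = 0.00323), Cby1, a β-catenin antagonist, from 9.32 to 12.86 FPKM (0.42, adjusted p = 0.00432) and Chd8 from 11.8 to 15.05 FPKM (0.33, adjusted p = 0.0235). Chd8 missed without WT replicate 1 (0.0675), mutant replicate 1 (0.0694) or mutant replicate 2 (0.0856). Activators and repressors of TCF/LEF transcription were both among the risers. Of 13 tested planar polarity genes, the branch in which Fzd6 acts, 4 rose and 5 fell (median log2 difference -0.09). The core gene Vangl1 rose from 12.1 to 16.5 FPKM (log2 difference 0.43, adjusted p = 0.00429) and Vangl2 from 21.4 to 28.3 FPKM (0.39, adjusted p = 0.00479). Prickle3 fell from 22.6 to 17.4 FPKM (log2 difference -0.36, adjusted p = 0.00195) and the GTPase gene Rac1 from 203 to 156 FPKM (-0.38, adjusted p = 0.00258). At the same total FPKM neither passed (adjusted p = 0.783 and 0.635). Over all pathway lists, 94 genes other than the 10 were tested, of which 29 rose and 14 fell, with a median log2 difference of 0.04. Their shares passing, like those of each list, can be read against the 23.2% higher and 22.8% lower among all tested genes.

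Several of these genes are also expressed in hair follicle cells, and follicle markers moved with the groups in both directions. Of 10 tested follicle markers, 5 rose and 2 fell, where 23.2% of all tested genes rose and 22.8% fell. Lgr5, among these risers, was tested only through its mutant libraries. Shh, the signal of the placode, rose from 3.10 to 6.72 FPKM (log2 difference 0.91, adjusted p = 0.000325) and Lhx2 from 9.82 to 17.2 FPKM (0.74, adjusted p = 0.000852). Sox9, a factor of follicle progenitors, fell from 47.7 ± 4.27 to 23.6 ± 0.671 FPKM (log2 difference -0.98, adjusted p = 4.17e-05). The summed follicle list was 1976 to 2393.2 FPKM in WT and 1368.5 to 1607.7 FPKM in mutant libraries. Krt17, a keratin of follicles and stressed epidermis, made up most of that sum and fell from 2026 ± 228.5 to 1397 ± 124 FPKM (adjusted p = 0.0114), while 5 markers rose, though under quantile normalisation its sign was turned (0.15). The Krt17 call was also lost at the same total FPKM (log2 difference -0.20, adjusted p = 0.0594) and with a replicate block (adjusted p = 0.0857). Suprabasal markers rose in part (3 of 7, with 1 lower), with Krt1 from 1489 to 5730 FPKM (log2 difference 1.94) and Krt10 from 1704 to 5899.5 FPKM (1.79), and their sum went from 3856.9 to 4656.8 FPKM in WT to 11733 to 14326 FPKM in the mutant. Of 7 tested basal markers, none rose and 4 fell as deposited (sums of 23286 to 23874 and 20290 to 23336 FPKM). At the same total FPKM, Krt5 passed as higher (log2 difference 0.32, adjusted p = 0.00313) and Krt14 turned to 0.06 (adjusted p = 0.481). When small RNA rows were also left out, Krt5 stood at 0.36 (adjusted p = 0.00204). What part these shifts have in the differences of the 10 genes was not tested. In sorted bulk samples, fewer cells of a type and less RNA per cell cannot be told apart.

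Erythroid and fibroblast markers were the highest among those of other cell types. Fibroblast sums are given above. Endothelial sums were 1.31 to 2.66 FPKM in WT and 0.766 to 1.66 FPKM in mutant libraries, with Pecam1 and Cdh5 under 1 FPKM on average. Immune sums were 7.09 to 8.20 and 4.96 to 5.68 FPKM, with 3 of 3 tested markers lower, Ptprc at 0.0569 and 0.0820 FPKM and Cd207 at 0 in every library. Melanocyte sums were 14.6 to 19.9 and 10.8 to 14.3 FPKM (2 of 2 lower), muscle sums 10.2 to 18.3 and 5.32 to 5.67 FPKM (2 of 2 lower) and erythroid sums 230.5 to 312.9 and 90.2 to 156.6 FPKM (3 of 6 lower). Merkel cell sums were 2.36 to 2.74 and 3.24 to 13.3 FPKM (1 of 2 higher), with Atoh1 at 0.119 and 0.232 FPKM. The Merkel marker Krt8 (0.937 to 3.34 FPKM) and the immune marker C1qc (1.71 to 0.963) reached the minimum mean of 1 FPKM only through their higher group. At the same total FPKM, Dct of melanocytes and Cd68 of immune cells did not pass (adjusted p = 0.724 and 0.279). The muscle marker Acta1 kept its call under all 18 alternatives. The part of these cell types in the results was not tested.

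A trend within the WT group touches most of the 10 genes. For 8 of them, all but Wls and Wnt7a, WT replicate 1 was the lowest and WT replicate 3 the highest WT library, an order that 25% of tested genes had. Over the 1434 genes with transcripts longer than 6000 bases, the median deviation from a gene's mean over the 6 libraries was -0.083 in WT replicate 1, 0.058 in WT replicate 3 and -0.082 in mutant replicate 3 on the log2 scale. Of the 10 genes only Lrp6, at 9368 bases, is in that class. Over the 4196 genes of 3000 to 6000 bases, a class that holds 8 of the others, the deviations were smaller, at -0.048, 0.001 and 0.007. With trends in transcript length and GC content removed from each library, Wnt3 passed as lower (adjusted p = 0.0185) and Wnt10a did not pass (adjusted p = 0.051). The intervals deposited with each FPKM value were wide, with median half-widths of 31.6% to 41.3% of the value per gene, and for all 10 genes the intervals of the 2 groups overlapped.

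**Figure D3:**
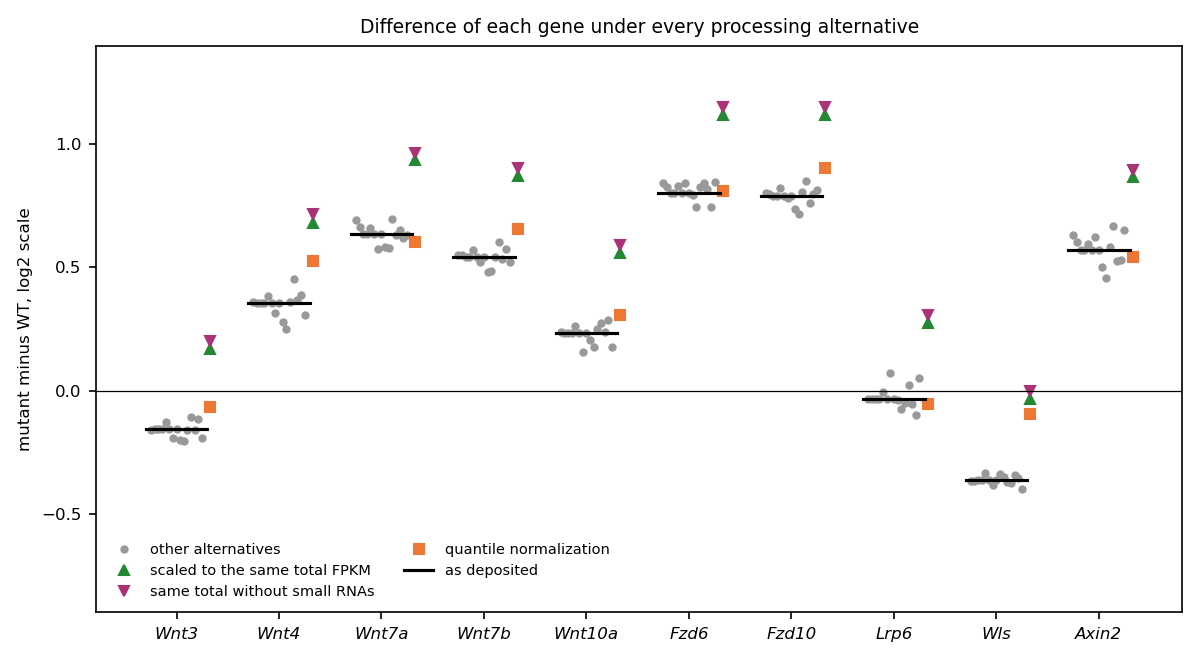
Log2 differences (mutant minus WT) of the 10 genes as deposited (black bars) and under each of 18 alternative settings (points), with 3 of the alternative scalings in colour. Fzd6 and Fzd10 stay at 0.718 or above throughout, scaling to the same total FPKM lifts all 10 genes, and it brings Wls from -0.36 to -0.04.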

How the data were processed

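RNA-seq libraries of sorted basal epidermal cells (3 WT, 3 mutant) were compared. The deposited values are FPKM per gene, made by the authors with TopHat and Cufflinks, per the submitters' processing notes, which name build mm9; no source used here gives versions, strandedness or library scaling. Of 23323 symbols found in GENCODE M21, however, 98.9% overlapped the GRCm38 gene of that name, so positions (start plus 1) are read as GRCm38. No read totals were used, so depth is unknown and no count test was run.

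Log2(FPKM + 1) of genes whose mean reached 1 FPKM was tested with limma 3.58.1 (R 4.3.3; empirical Bayes with a trend, Benjamini-Hochberg adjustment, threshold 0.05). The procedure was also run on simulated data with 200 changed genes per set and no shift in scale between libraries, so that run does not bear on scaling. Shares and ratios were compared by exact permutation. Folds are ratios of mean FPKM. Python 3.11.15, numpy 2.4.6, pandas 2.3.3, scipy 1.17.1 and matplotlib 3.10.9 were used.

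Members and lists were chosen with earlier results of these data known. Named besides the 10 genes were Pik3ca, up to 4 genes of each pathway list (called genes by smallest p, then highest mean), the 3 pathway genes most correlated with Axin2 and with Wnt4, and the first 2 genes of each marker list. Some of these are not reported here. Alternatives covered pseudocount, filter, scaling, variance prior, library weights, replicate block and each library left out; removal of length and GC trends was added after the data were seen. Protein identity between members was not computed.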

Additional observations from a re-analysis of the deposited data

How the results depend on the processing

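Of the 10 genes, Fzd6, Fzd10, Wnt7a, Wnt7b and Axin2 kept their call under all 18 alternatives. Scaling mattered most. With each library at the same total FPKM, 5375 genes were higher and 842 lower, with 62 pathway genes higher, 0 lower and 0 of the 10 genes lower. At the same total without small RNA rows these were 6536, 905, 69, 0 and 0. Quantile normalisation left 0 of the 10 lower; Wnt6 was then 0.05361, Ctnnb1 0.3096, Krt17 0.1525 and Ccnd1 0.02008. At the same total FPKM the sign turned for Wnt3 (0.1694), Lrp6 (0.2759), Wnt6 (0.2223), Snx3 (0.1092), Ptk7 (0.1493), Axin1 (0.08549), Krt5 (0.3228), Krt14 (0.05782), Ctnnb1 (0.3292), Ccnd1 (0.2827) and Myc (0.1523). When small RNA rows were also left out it turned for Wnt3 (0.202), Lrp6 (0.3064), Wnt6 (0.2551), Snx3 (0.142), Ryk (0.00212), Ptk7 (0.182), Siah1a (0.01092), Axin1 (0.1177), Krt5 (0.356), Krt14 (0.09104), Ctnnb1 (0.3623), Ccnd1 (0.3149) and Myc (0.185). At the same upper quartile, Krt5 was 0.02022 and Ctnnb1 0.02722. With array weights, 2 of the 10 (Wls and Wnt3) and 26 pathway genes were lower (3542 genes higher and 3546 lower overall), and Lrp6 was 0.07095. With length and GC trends removed, 2 of the 10 and 23 pathway genes were lower. The cause of these shifts was not tested.

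Leaving out 1 library gave 23 to 41 pathway genes higher (23 without mutant replicate 2 and 24 without WT replicate 1) and 6 to 13 lower (6 without WT replicate 2, 9 without WT replicate 1 or mutant replicate 2), with log2 ranges of -0.09871 to 0.05105 for Lrp6, -0.07106 to 0.028 for Krt5, -0.02697 to 0.0298 for Ctnnb1 and -0.1191 to 0.01794 for Ccnd1. Whether replicate numbers pair the samples is not settled: deviations of same-numbered libraries correlated at 0.127, 0.122 and -0.00735. Those of WT and mutant libraries with different numbers correlated at -0.157 to 0.0619. With a replicate block, 1889 genes were higher and 1909 lower, pathway genes 25 and 8, and the 10 genes 6 and 1, with Wnt10a lost (adjusted p = 0.0781). Depth, being unknown, limits what the low genes can show.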
